A study of Phalaenopsis aphrodite subsp. formosana with 4 samples.

Results

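The small RNAs of the flower stalk were set against those of the leaf in Phalaenopsis aphrodite subsp. formosana, a moth orchid. Both organs came from plants given the same low temperature treatment, though not for the same length of time. The comparison used 2 of the 4 small RNA libraries of the series, 1 from stalks (S) and 1 from low temperature-treated leaves (CL), chosen by their labels. Of 6865 unique miRNA-matched sequences read in S or CL, the 139 with at least 100 reads over both libraries were compared 1 by 1. Reads were also summed into families, by the miRNA number of the closest known miRNA with letters and arms merged, and 25 of the 296 families with any read in S or CL reached 100 reads.

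Plants for both libraries grew at 24°C in light and at 18°C in darkness. Stalks were cut at months 1.5 to 2, and the CL leaves were gathered every 0.5 month from month 0 to month 2. If months count from the start of treatment, leaves of month 0 had no low temperature exposure. Organ, sampling time and length of exposure therefore cannot be told apart. The other libraries were flower buds (FB) of month 3.5 at 24°C and 18°C, and untreated leaves (NL) of months 0 to 2 at 32°C and 27°C, and their values are given beside the comparison only. All plants were of strain M1624, were grown as seedlings at a constant temperature beforehand, and were picked individually for RNA. Flower stalks form only in the low temperature plants, so stalk and low temperature cannot be separated either, and the tables hold small RNAs only, with no marker that defines leaf or stalk cells.

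A plant miRNA is a short RNA that guides an ARGONAUTE protein to mRNAs with a nearly complementary site. Most of the abundant families are shared by flowering plants and hold down transcription factors: miR156 acts on SPL genes and keeps plants juvenile, miR172 acts on AP2-type genes that delay flowering, and miR164, miR166 and miR167 act on regulators of organ boundaries, organ polarity and auxin responses. Closely similar sequences of 1 family can come from different precursor genes and can be made in different organs. Others are end or single-base variants of an abundant sequence, and the precursors of the forms compared here were not tested.

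The sequences that carry the comparison are printed first, 5′ to 3′ with T for U as in the tables, and the seed (bases 2 to 8) is in capitals. The first set holds the leading miR172, miR167 and miR156 or miR157 sequences of each organ, because the organs differ in which one leads.
miR172 stalk form: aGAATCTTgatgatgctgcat
miR172 leaf form: cGAATCTTgatgatgctgcat
miR167 stalk form: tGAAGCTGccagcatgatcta
miR167 leaf form: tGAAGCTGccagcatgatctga
miR156 stalk form: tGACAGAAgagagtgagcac
miR156 leaf form: cTGACAGAagatagagagcac
miR157 form: tGACAGAAgatagagagcac
With positions counted from 1 at the 5′ end, the stalk form of miR172 differs from the leaf form by C1A, outside the seed. The leaf form of miR167 has 22 nt and the stalk form 21 nt, and over their shared 21 positions the stalk form differs from the leaf form by G21A. The miR156 leaf form carries the miR157 form after its first base, which moves its seed by 1 position, whereas the miR156 stalk form and the miR157 form share the seed GACAGAA.

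The second set holds miR172 sequences that were nearly absent from the leaf library, and the third the most abundant sequences of other families, of which miR528 and miR168 led the leaf and the stalk library.
miR172 form ending CCT: aGAATCTTgatgatgctgcct
miR172 form beginning GGAATCC: gGAATCCTgatgatgctgcat
miR172 form shifted by 1 base: gAGAATCTtgatgatgctgca
miR528: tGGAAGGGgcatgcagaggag
miR168 ending C: tCGCTTGGtgcaggtcgggac
miR166: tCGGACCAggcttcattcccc
miR535: tGACAACGagagagagcacgc
miR164 common form: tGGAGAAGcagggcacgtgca
miR164 leaf form: tGGAGAAGcagggcacgtgtt
The sequence ending CCT differs from the stalk form of miR172 by A20C, and the one beginning GGAATCC by A1G and T7C, the second of which lies in the seed. The miR164 leaf form differs from the common form by C20T and A21T, so both share a seed.

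The stalk library held far fewer miRNA-matched reads than the leaf library. There were 106142 matched reads of 3288 sequences in S and 404345 reads of 4981 sequences in CL, which is 1.32% of clean reads in S (95% Wilson interval 1.32 to 1.33%) and 5.46% in CL (5.45 to 5.48%). The ratio S over CL was 0.242 (exact binomial 95% interval 0.241 to 0.244), and 0.371 (0.368 to 0.374) without miR528. In FB and NL the matched reads were 4.20% and 3.15% of clean reads. Levels are therefore given on 2 scales, per 1000000 clean reads (RPM) and per 1000000 matched reads, and every ratio is 4.13-fold higher (2.04 on the log2 scale) on the second. Per clean reads a ratio compares a family with all small RNAs of the library, and per matched reads with the other miRNAs. In tissue samples of this kind, fewer cells making a miRNA and less of it per cell cannot be told apart.

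With 1 library a side no test between organs was possible and no p-value is given. Intervals cover counting error only, and since reads amplified by PCR are not independent molecules they are narrower than the error between plants would be. A family or sequence was called higher where S over CL exceeded 1.5 and lower where it was under 0.667. Ratios of single sequences are per clean reads unless stated, and those between 0.242 and 1 lie above 1 per matched reads.

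Per clean reads, 3 of 25 families (12%) were higher in stalk and 18 (72%) lower. Per matched reads 16 (64%) were higher and 5 (20%) lower. The 3 families higher on both scales were miR172, miR169 and miR529, and the 5 lower on both were miR157, miR528, miR167, miR156 and miR396. Another 9 families were lower per clean reads and higher per matched reads, among them miR168, miR166 and miR894, so for these the direction is set by the scale. The median ratio was 0.472 per clean reads and 1.95 per matched reads.

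**Figure D1:**
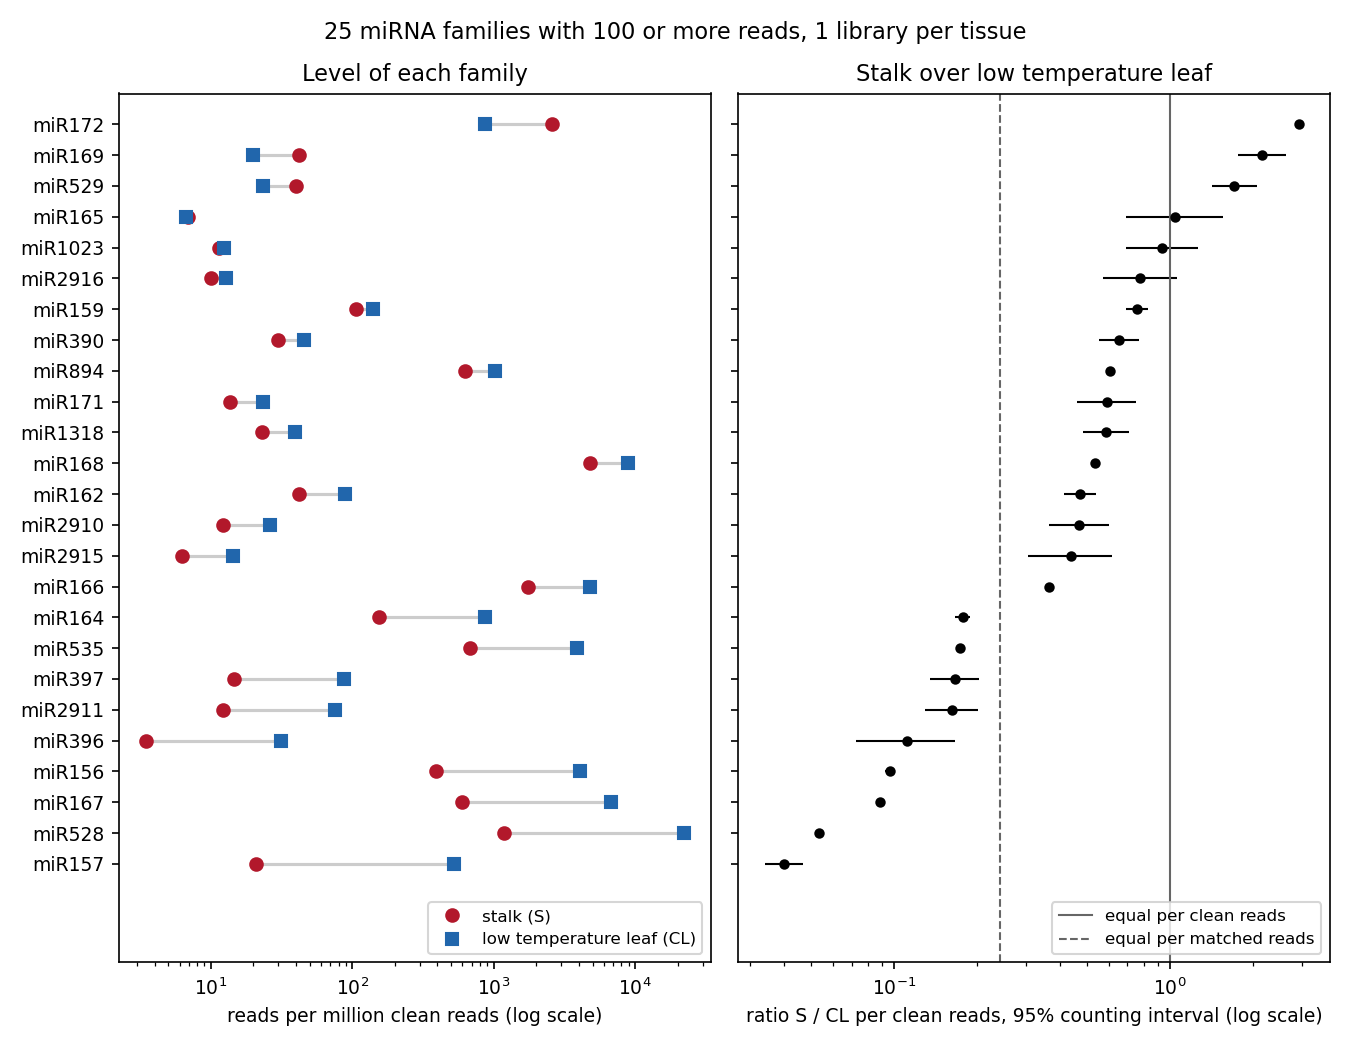
Left, level of each of 25 miRNA families in reads per 1000000 clean reads on a log scale, in the stalk library (circles) and the low temperature leaf library (squares). Right, the ratio S over CL per clean reads on a log scale with its 95% counting interval; the solid line marks equal levels per clean reads and the dashed line, at 0.242, equal levels per matched reads. 4 families lie right of the solid line, 9 left of the dashed line, and the 12 between the lines change direction with the scale.

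Among the phase transition families, the miR172 family was 2.94-fold higher in stalk (2.86 to 3.02), with 20562 reads (2565 RPM) in S and 6457 reads (873 RPM) in CL. It took 19.4% of matched reads in S and 1.60% in CL, a ratio of 12.1 per matched reads. The stalk form had 14719 reads in S and 339 in CL, a ratio of 40.1 (36.0 to 44.8). The family without it had 5843 reads in S and 6118 in CL, a ratio of 0.882 (0.850 to 0.914) per clean reads, no longer higher, and 3.64 per matched reads, still higher. The leaf form went the other way, with 460 reads in S and 4490 in CL (ratio 0.0946, 0.0857 to 0.104). The stalk form was 71.6% of miR172 reads in S and 5.25% in CL, and the leaf form 2.24% in S and 69.5% in CL. All sequences that begin AGAATC made up 80.8% in S and 20.3% in CL, a difference of 60.5 percentage points (59.4 to 61.6). In CL, however, most of the 1309 AGAATC reads were not the stalk form. A sequence that differs from it by T7A, in the seed, and T21A held 897 reads in CL and 472 in S. This sequence, named after its values were seen, had a ratio of 0.486 (0.434 to 0.544) per clean reads and 2.00 per matched reads. It was 13.9% of miR172 reads in CL and 2.30% in S.

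Several rarer miR172 sequences were almost absent from the leaf library. The form ending CCT had 828 reads in S and 2 in CL, a ratio of 382 with a counting interval of 105 to 3161. The form beginning GGAATCC had 764 reads in S and 1 in CL (705, 126 to 27893), and its version without the first base had 159 and 3 (48.9, 16.4 to 240). The form shifted by 1 base had 144 reads in S and 0 in CL, which is at least 44.3-fold higher when the count of 0 is read as 3. In FB these 4 sequences had 472, 2178, 591 and 22 reads, and in NL 0, 0, 0 and 1. A 20 nt sequence that the stalk and leaf forms share after their first base had 1617 reads in S and 271 in CL (5.51, 4.84 to 6.29) and cannot be given to either form. Of the 8 miR172 sequences with at least 100 reads, 6 were higher in stalk and 2 lower per clean reads, against 7.19% and 77.7% of all 139 sequences. The 4 sequences almost absent from CL reached 100 reads only through S, so the limit itself fixed their call. Some of the 8 are also end variants of one another, so these counts are not of separate observations. The 8 sequences spanned 7457-fold in their ratio, a span that is uncertain because its upper end rests on 1 read in CL.

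The SPL-targeting families miR156 and miR157 were lower in stalk on both scales. The miR156 family had 3133 reads (391 RPM) in S and 30060 (4063 RPM) in CL, a ratio of 0.0962 (0.0927 to 0.0999) per clean reads and 0.397 per matched reads. The miR157 family had 168 reads (20.96 RPM) in S and 3876 (524 RPM) in CL, the lowest ratio of the 25 families at 0.040 (0.034 to 0.047). Here too the organs differed in the leading sequence. The stalk form of miR156 had 2174 reads in S and 9067 in CL (ratio 0.221, 0.211 to 0.232), the leaf form 656 and 18459 (0.0328, 0.0303 to 0.0355), and the miR157 form 146 and 3628 (0.0371, 0.0313 to 0.0438). Sequences holding the miR156 stalk form were 66.6% of the joined miR156 and miR157 reads in S and 27.2% in CL, and those holding the miR157 form 24.5% in S and 65.4% in CL.

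The miR529 family, also directed at SPL genes, had 321 reads (40.1 RPM) in S and 174 (23.5 RPM) in CL, a ratio of 1.70 (1.41 to 2.06). Of its leading sequences, the stalk one had 147 reads in S and 14 in CL (9.69, 5.60 to 18.2), while the leaf one had 129 and 137, a ratio of 0.869 (0.678 to 1.11) per clean reads and 3.59 per matched reads. The rest of the family had 45 reads in S and 23 in CL (1.81, 1.07 to 3.13). They are printed here because their seeds are not identical.
miR529 stalk form: aGAAGAGAgagagtacagcct
miR529 leaf form: aGAAGAGGgtagaggaagctt
The leaf sequence has 4 mismatches and gaps against its best match, rice miR529b, and the stalk sequence 1.

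The miR535 family, which resembles miR156 in sequence, had 5423 reads (677 RPM) in S and 28859 (3900 RPM) in CL. Its ratio was 0.173 (0.168 to 0.179) per clean reads and 0.716 per matched reads. The main sequence held 4375 reads in S and 24177 in CL (0.167, 0.162 to 0.173). A further pair of sequences was chosen after their values were seen, since they mark the ends of the family's range.
miR535 C7A form: tGACAAAGagagagagcacgc
miR535 A5G and C7T form: tGACGATGagagagagcacgc
The first had 65 reads in S and 1423 in CL (ratio 0.0422) and the second 517 and 723 (0.660), both against the main sequence as reference. The second also had 12077 reads in FB. A miR156-named sequence with 4 reads in S and 770 in CL (0.0048, 0.0013 to 0.0123) holds the first 20 bases of the C7A form after its own first base. Over the 5 phase transition families, 2 were higher and 3 lower per clean reads, against 12% and 72% of all 25 families. Per matched reads 2 were higher and 2 lower, against 64% and 20%. The median ratios on the 2 scales were 0.173 and 0.716, against 0.472 and 1.95 over all 25 families.

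**Figure D2:**
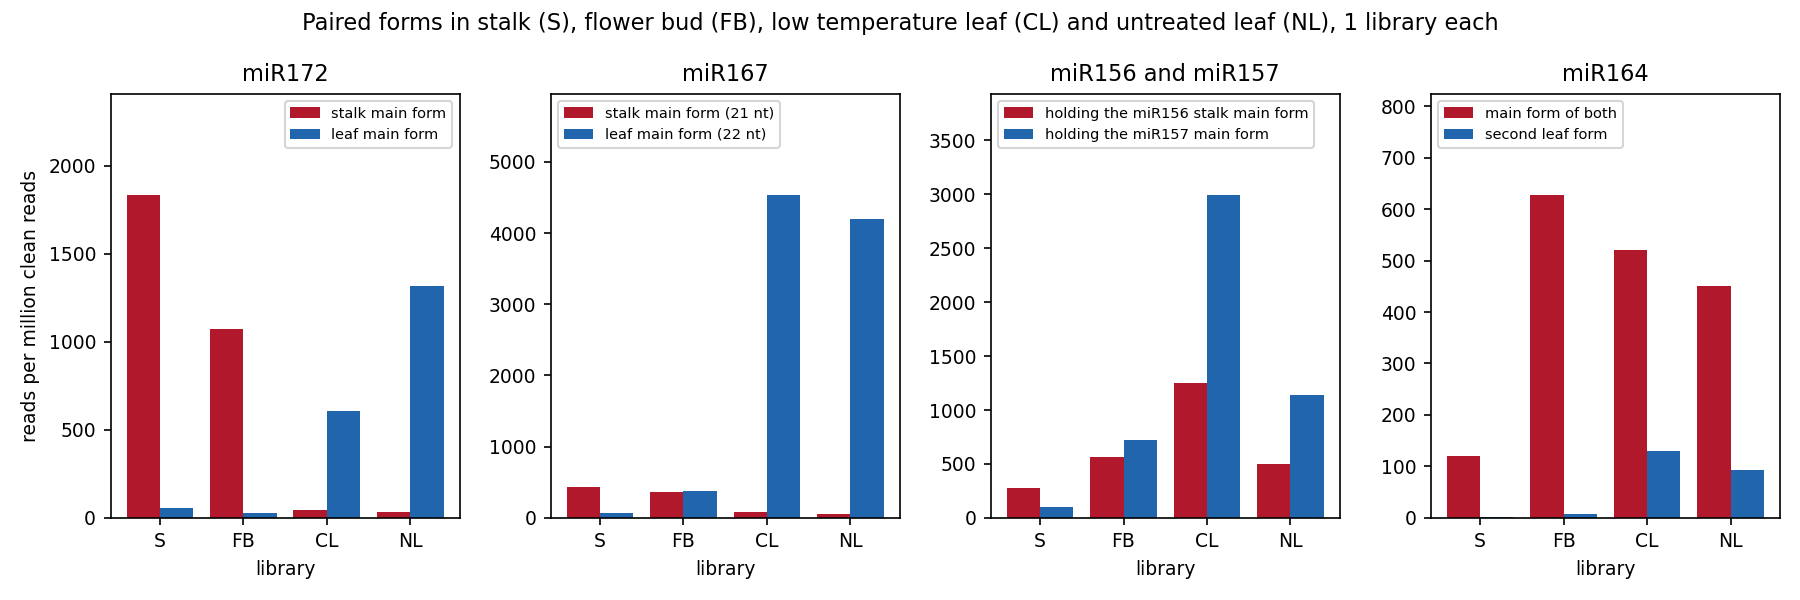
Levels in reads per 1000000 clean reads of 2 forms in each of 4 panels (miR172, miR167, miR156 with miR157, miR164), in stalk (S), flower bud (FB), low temperature leaf (CL) and untreated leaf (NL), 1 library each. The miR172 stalk form stood at 1836 RPM in S and 45.8 RPM in CL and the leaf form at 57.4 RPM in S and 607 RPM in CL.

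The auxin, organ boundary and polarity families were lower in stalk per clean reads in 4 of 5 cases, against 72% of all 25 families, and higher per matched reads in 3 of 5, against 64%, both near the share over all families. The miR167 family, which targets the auxin response factors ARF6 and ARF8, was lower on both scales, with 4777 reads (596 RPM) in S and 49851 (6738 RPM) in CL and a ratio of 0.088 per clean reads (0.086 to 0.091) and 0.365 per matched reads. Its forms moved apart by organ. The 21 nt stalk form had 3490 reads in S and 658 in CL (4.90, 4.50 to 5.33), and the 22 nt leaf form 492 and 33605 (0.0135, 0.0123 to 0.0148). Among miR167 reads 78.0% in S and 4.24% in CL were of 21 nt, and 18.3% in S and 90.0% in CL of 22 nt.

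Among 14 miR167 sequences with at least 100 reads the stalk form alone was higher in stalk, and the other 13 were lower, on both scales. Over all 139 sequences 77.7% were lower per clean reads and 44.6% per matched reads. Many of the 13 are end or single-base variants of one another and are not separate observations. The 139 likewise include 34 miR528 sequences. The second 22 nt sequence, which ends CTGT, had 306 reads in S and 9590 in CL (0.0295, 0.0262 to 0.0330). The leaf form lacking its last base, a 21 nt sequence, had 10 reads in S and 784 in CL (0.0118), so this 21 nt sequence followed the leaf form. The lowest ratio other than 0 among the 139 sequences was that of a 23 nt miR167 sequence with 1 read in S and 253 in CL (0.0036, 0.0001 to 0.0205). A 22 nt sequence with 0 reads in S and 140 in CL was at least 50.6-fold lower in S. Leaf and stalk forms match different known miRNAs: the stalk form is identical to Arabidopsis miR167a, and the leaf form has 1 mismatch to miR167d. With perfect matches alone the family had 3556 reads in S and 1494 in CL and its ratio turned to 2.20 per clean reads, since that setting removes the leaf form. In FB the stalk and leaf forms had 2305 and 2423 reads, and in NL 364 and 30209.

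**Figure D3:**
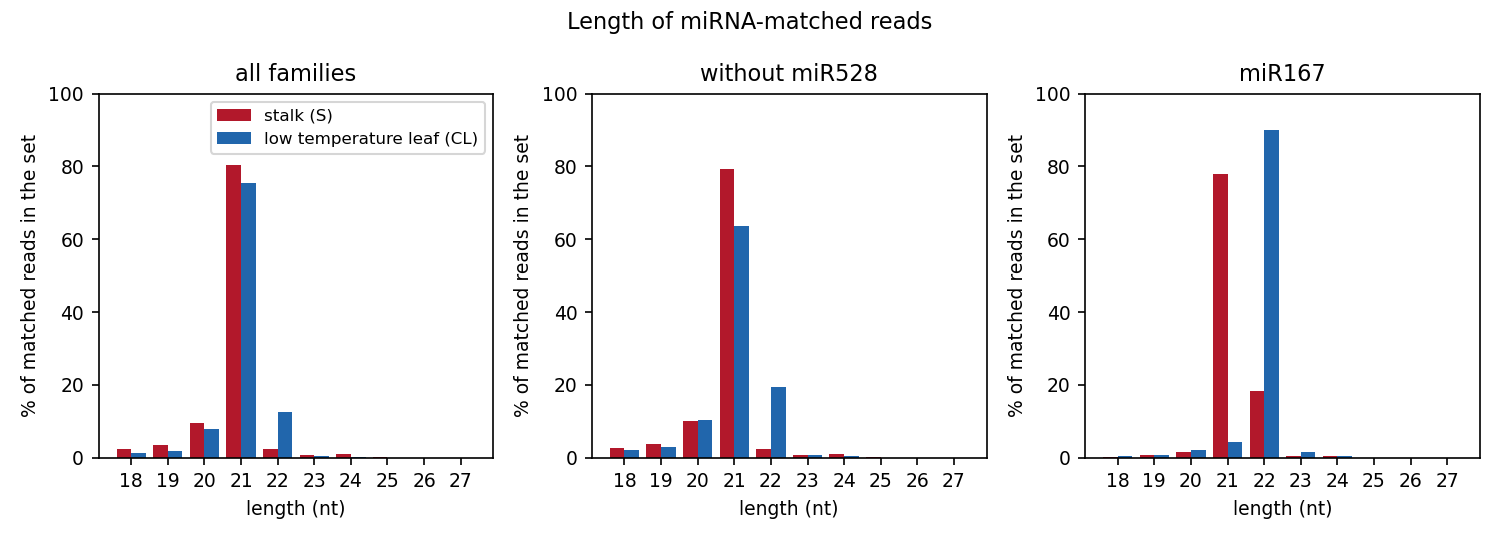
Share of matched reads by length in nt for all families, without miR528, and for miR167, in stalk (left bar of each pair) and low temperature leaf (right bar). In the miR167 panel 21 nt holds 78.0% of reads in S and 4.24% in CL, and 22 nt 18.3% in S and 90.0% in CL.

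The miR164 family, directed at NAC genes of the CUC type that set organ boundaries, had 1230 reads (153 RPM) in S and 6415 (867 RPM) in CL, with ratios of 0.177 (0.166 to 0.188) and 0.730. Its common form was 78.5% of the family in S and 60.0% in CL, with 966 and 3847 reads (0.232, 0.216 to 0.249). The leaf form had 9 reads in S and 964 in CL, a ratio of 0.0086 (0.0039 to 0.0164), and stood at 49 reads in FB and 675 in NL.

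The miR166 family, which acts on HD-ZIP III genes of organ polarity, had 14023 reads (1750 RPM) in S and 35596 (4811 RPM) in CL. It was lower per clean reads (0.364, 0.357 to 0.371) and just past the limit as higher per matched reads (1.50, 1.47 to 1.53), with some sequences of the family not analysed here. The printed main sequence was 51.3% of the family in S and 64.9% in CL, and its versions shortened at the 3′ end to 18 to 20 nt were 29.9% in S and 22.8% in CL. The 19 nt version had 2114 reads in S and 3952 in CL (0.494, 0.468 to 0.521), against 7190 and 23109 (0.287, 0.280 to 0.295) for the full 21 nt. A sequence with the change A15C from the main one, named after its values were seen, had 649 reads in S and 662 in CL, a ratio of 0.905. The miR165 family, with 55 reads in S and 49 in CL, had a ratio of 1.04 whose interval (0.692 to 1.56) spans 1, and 4.28 per matched reads. For miR390, which starts production of small RNAs against auxin response factors, 239 reads (29.8 RPM) were found in S and 338 (45.7 RPM) in CL, with ratios of 0.653 (0.551 to 0.773) and 2.69. Below 100 reads, miR160 had 9 reads in S and 33 in CL (0.252, 0.106 to 0.538), miR393 21 and 18, and miR394 1 and 7.

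Of the families that act on the small RNA pathway itself, miR168, the regulator of ARGONAUTE1, led the stalk library, with 36.2% of matched reads in S and 16.4% in CL. Its reads were 38451 (4797 RPM) in S and 66289 (8959 RPM) in CL, lower per clean reads (0.535, 0.529 to 0.542) and higher per matched reads (2.21, 2.18 to 2.24). The family had 3 major sequences that differ only in the last base, by A21C and A21T from the one ending in A. The one ending in C had 21836 reads in S and 33578 in CL (0.600, 0.590 to 0.611), the one ending in A 10300 and 18286 (0.520, 0.508 to 0.533), and the one ending in T 1855 and 7131 (0.240, 0.228 to 0.253). The last thus made up 4.82% of the family in S and 10.8% in CL, and the C form 56.8% in S and 50.7% in CL, a difference of 6.14 points (5.51 to 6.76). All 12 miR168 sequences lay between 0.240 and 0.658 per clean reads. For miR162, which acts on DICER-LIKE1, there were 335 reads (41.8 RPM) in S and 655 (88.5 RPM) in CL, with ratios of 0.472 (0.413 to 0.539) and 1.95.

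Of the copper protein and laccase families with at least 100 reads, miR528 and miR397, both were lower in stalk per clean reads, where 72% of all families were, and 1 was lower per matched reads, where 20% were. The miR528 family, which in rice and maize acts on copper proteins and laccases, had 9450 reads (1179 RPM) in S and 163625 (22114 RPM) in CL. Its ratio was 0.0533 (0.0522 to 0.0544) per clean reads and 0.220 (0.215 to 0.225) per matched reads, and it fell to 8.90% of matched reads in S, against 40.5% in CL. The stalk level also lay under the 17966 RPM of FB and the 6540 RPM of NL. Its main sequence had 8211 reads in S and 145318 in CL (0.0522, 0.0510 to 0.0533). All 34 miR528 sequences with at least 100 reads were lower on both scales, from 0.0078 to 0.103 per clean reads. Over all 139 sequences 77.7% were lower per clean reads and 44.6% per matched reads. Of the 34 miR528 sequences, 24 differ from the main sequence at 1 base. These 24 had 230 reads in S and 3748 in CL, with a median ratio of 0.0585 per clean reads, near that of the main sequence. All single-base variants, also those under 100 reads, numbered 61 in S and 63 in CL. Together they had 4.65 reads per 100 reads of the main sequence in S and 3.80 in CL. Most of the 34 sequences are thus close variants of the main one and are not taken as separate observations. The miR397 family, which acts on laccases, had 116 reads (14.5 RPM) in S and 647 (87.4 RPM) in CL, with ratios of 0.166 (0.135 to 0.202) and 0.683. Of these reads, 104 in S and 612 in CL were of 1 sequence with 4 mismatches and gaps to its best match, tomato miR397. Of the rest of this list, miR408 had 0 reads in S and 11 in CL, at least 3.97-fold lower in S, miR398 5 and 2, and miR857 1 and 1.

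The miR169 family, which acts on NF-YA transcription factors, was higher in stalk on both scales, with 339 reads (42.3 RPM) in S and 146 (19.7 RPM) in CL and ratios of 2.14 (1.76 to 2.62) and 8.85. Its stalk level stayed far from the 643 RPM of FB. The sequence ending in CCGG had 121 reads in S and 19 in CL (5.88, 3.61 to 10.1), and the one ending in CCGA 127 and 88 (1.33, 1.01 to 1.77). The first differs from the second by A21G, and in FB they had 42 and 3445 reads, so the 2 leading miR169 sequences of the stalk did not stand in the same proportion in the bud. In the same list of nutrient-related families, miR399 had 33 reads in S and 37 in CL, miR395 4 and 5, and miR827 none in either.

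The proliferation and meristem families miR171 and miR396 were both lower per clean reads, as were 72% of all families. Per matched reads 1 was higher and 1 lower, against 64% and 20% of all families. The miR396 family, which acts on GRF growth regulators, had 28 reads (3.49 RPM) in S and 232 (31.4 RPM) in CL, a ratio of 0.111 (0.0724 to 0.165) per clean reads and 0.460 per matched reads, with some sequences of the family not analysed here. The miR171 family, directed at GRAS genes of the meristem, had 110 reads (13.7 RPM) in S and 172 (23.2 RPM) in CL, lower per clean reads (0.590, 0.460 to 0.754) and higher per matched reads (2.44). Its leading sequences changed between organs.
miR171 stalk form: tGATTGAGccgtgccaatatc
miR171 leaf form: tTGAGCCGcgtcaatatctcc
The stalk form had 59 reads in S and 17 in CL (3.20, 1.84 to 5.86), and the leaf form 13 and 94 (0.128, 0.0656 to 0.229). The stalk form is a perfect match to rice miR171b and the leaf form has 3 mismatches and gaps to tomato miR171d, and with perfect matches alone the family ratio was 3.20 per clean reads.

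The miR159 family, which acts on GAMYB genes of the gibberellin response, had 850 reads (106 RPM) in S and 1034 (140 RPM) in CL, a ratio of 0.759 (0.692 to 0.832) that is within the limits per clean reads and higher per matched reads (3.13), again with some sequences not analysed here. Its 21 nt main sequence had 319 reads in S and 541 in CL (0.544, 0.472 to 0.626), while an 18 nt sequence had 81 and 22 (3.40, 2.10 to 5.72). A more abundant 18 nt sequence had 182 reads in S and 234 in CL (0.718, 0.588 to 0.875). All 18 nt reads of the family were 305 in S and 286 in CL (0.984, 0.835 to 1.16), so the short reads as a whole were not higher per clean reads. The related miR319 family, directed at TCP genes of leaf shape, stayed under 100 reads with 71 in S and 14 in CL (4.68, 2.62 to 8.99), and had 103 in FB and 4 in NL. It was the second family outside the limit of reads, after miR1171 with 40 and 57 reads (0.648). Just inside the limit lay miR165 and miR2915.

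A further list held families taken to resemble fragments of rRNA or tRNA, a likeness that was not checked here for any of them, miR1318 included. Its families with at least 100 reads lay between 0.435 and 0.777 per clean reads, apart from miR2911. The miR894 family, first named in moss, had 4989 reads (622 RPM) in S and 7612 (1029 RPM) in CL, lower per clean reads (0.605, 0.584 to 0.627) and higher per matched reads (2.50). Its 23 sequences ranged from 0.153 to 1.23, and forms longer than the main sequence at the 5′ end were 42.6% of the family in S and 37.3% in CL. The miR1318 (0.585), miR2910 (0.469) and miR2915 (0.435) families were likewise lower per clean reads and higher per matched reads. miR2911 was lower per clean reads, with 98 reads in S and 558 in CL (0.162, 0.129 to 0.201), and stood at 0.669 per matched reads, within the limits. miR2914 had 42 reads in S and 35 in CL. miR2916 had an interval that spans 1 per clean reads (0.777, 0.570 to 1.06) and was higher per matched reads (3.21). For miR1023, which is outside these lists, there were 92 reads in S and 91 in CL, with ratios of 0.933 (0.691 to 1.26) per clean reads and 3.85 per matched reads.

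Among the 139 sequences 10 (7.19%) were higher in stalk and 108 (77.7%) lower per clean reads, and 64 (46%) were higher and 62 (44.6%) lower per matched reads. The 10 higher ones were 6 of miR172 and 1 each of miR167, miR529, miR169 and miR159. Within a family the ratios spread most for miR172 and miR167 and least, among families with at least 5 such sequences, for miR168 (2.74-fold). The highest miR172 ratio rests on 1 read in CL and the lowest miR167 ratio on 1 read in S. In 6 of 25 families, miR172, miR167, miR156, miR529, miR171 and miR2916, the most abundant sequence was not the same in stalk and leaf, and in 19 it was. The miR2916 case rests on few reads, since its stalk-leading sequence had 9 reads in S and 13 in CL and its leaf-leading one 7 in S and 17 in CL.

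**Figure D4:**
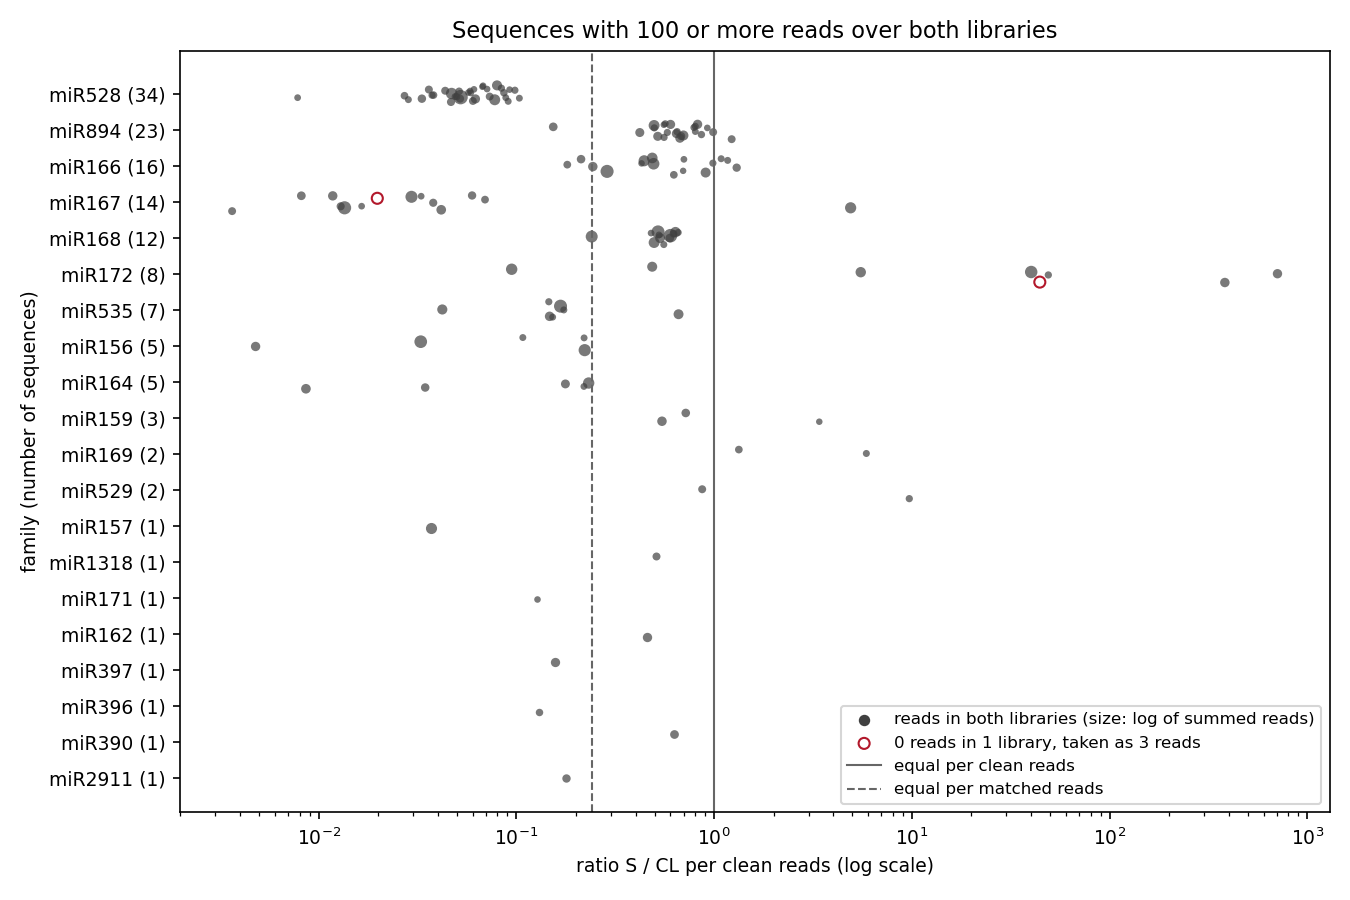
Ratio S over CL per clean reads, on a log scale, of each of 139 sequences, by family with the number of sequences in brackets. Open circles have 0 reads in 1 library, taken as 3, the solid line marks equal levels per clean reads and the dashed line equal levels per matched reads. All 34 miR528 points lie left of the dashed line, and miR172 points lie on both sides of the solid line.

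The make-up of the libraries differed as well. Reads of 21 nt were 80.5% of matched reads in S and 75.4% in CL, 79.4% in S and 63.7% in CL without miR528, and 93.8% in S and 94.1% in CL among perfect matches. Reads of 22 nt were 2.37% in S and 12.5% in CL, and miR167 held 875 of the 2516 in S and 44890 of the 50455 in CL. Reads beginning with A were 17.0% in S and 0.705% in CL, and those beginning with T 72.0% in S and 88.5% in CL. The miR172 sequences that begin AGAATC alone held 16608 of the 106142 matched reads in S and 1309 of 404345 in CL. These differences thus largely repeat those of miR167 and miR172. Sequences found in both libraries, 1404 in number, held 97.2% of the reads of S and 98.3% of those of CL. At 106142 reads drawn from CL, 2178 unique sequences are to be counted on average, against 3288 in S. That draw evens out matched reads but not clean reads, and with all its reads CL held 4981 sequences. The single most abundant sequence took 20.6% of matched reads in S and 35.9% in CL. Reads with 2 to 5 mismatches and gaps were 11.8% in S and 6.71% in CL.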

How the data were processed

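Small RNAs cut from gels at 20 to 25 nt were sequenced from 4 tissues, 1 library each. The authors trimmed the reads, removed those under 18 nt, collapsed identical ones and aligned the unique sequences to the known miRNAs of miRBase 15 by BLAST (version not given in the sources used here). As to units, the values they deposited are counts of reads per unique matched sequence, not normalized. Column 2 holds the sequence length and column 6 the length of the known miRNA, which the description of the columns does not keep apart. Sequences with 5 mismatches and gaps together (469 reads in S and 486 in CL) were kept, although fewer than 5 is the stated limit. Small RNAs without a match were not analysed here. Of the sequences in the paper's supplementary list of target predictions, 1 of miR159, 1 of miR166 and 4 of miR396 were not analysed here, so these 3 family values may cover part of the family.

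Reads were divided by the clean reads that the paper states or by matched reads. Ratios have exact conditional binomial 95% intervals and shares Wilson or, for differences, Newcombe intervals (Python 3.11.15, scipy 1.17.1). They cover counting error only. A trial on simulated data drew independent counts, as the intervals assume, so it does not bear on error from PCR or between plants. No test was made, with 1 library per group. Where a library had 0 reads, 3 were assumed for bounds. Alternatives were high quality reads, matched reads without miR528, the median ratio of 49 sequences, TMM factors of edgeR 4.0.16, subsets of sequences, limits of 20, 1000 or no reads, a limit of 2, and other family names. The text names every family with at least 100 reads, list members below that by their reads, and sequences by a rule: the 10 most abundant of each library, the most abundant of each family in each library, and the 10 largest and 10 smallest ratios. The comparison, lists and rule were chosen with earlier results of these data known.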

Additional observations from a re-analysis of the deposited data

How the results depend on the processing

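Both scales are reported as main values, and 21 alternatives were set against them. The counts of calls moved with the limit of reads. Per clean reads, families higher and lower were 120 and 110 of 296 without a minimum and 1 and 9 of 11 at 1000 reads, and 5 were higher at 20 reads. Sequences higher and lower were 2091 and 4331 of 6865 without a minimum, 41 and 321 at 20 reads, and 3 and 26 at 1000 reads. Without a minimum, 1884 sequences read in S alone and 3577 read in CL alone are called by their count of 0 in the other library. This holds on both scales, so those counts mostly reflect such sequences. Per matched reads, families higher and lower were 219 and 65 without a minimum, 32 were higher at 20 reads and 5 at 1000 reads, and sequences higher and lower were 2832 and 3809, 204 and 174, and 16 and 10 at the 3 limits.

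With perfect matches only, 10 families were lower per clean reads and 8 higher per matched reads, and sequences higher and lower were 3 and 15 per clean reads and 10 and 5 per matched reads, of 14 families and 21 sequences left. With at most 1 mismatch or gap, 69 sequences were lower per clean reads, and 9 families and 32 sequences were higher per matched reads. Without the most abundant sequence of each family 10 families were higher per matched reads. Matched reads per clean reads had a ratio of 0.200 with perfect matches, 0.229 with at most 1 mismatch or gap, 0.234 at 20 to 22 nt, 0.240 for sequences with 2 or more reads, 0.371 without miR528 and 0.251 per high quality reads.

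The 21 nt share, 5.08 points higher in S, was -0.37 points with perfect matches, 8.62 with at most 1 mismatch or gap, 5.66 for sequences with 2 or more reads and 15.7 without miR528. With perfect matches the differences of form fell away because that setting removes 1 of the forms: 0.46 points for AGAATC in miR172, 2.02 for 21 nt in miR167 and 0 for the C form of miR168. With at most 1 mismatch or gap they were 62.5, 76.6 and 7.05 points.

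Other denominators in place of matched reads lower every ratio, by 0.61 on the log2 scale (-0.61) without miR528, 1.04 (-1.04) by the median ratio of 49 sequences and 1.31 (-1.31) by TMM. Families lower were then 9, 9 and 10, families higher 7 by the median ratio and 5 by TMM, and sequences higher 25 and 19. Families that turned from higher to under 1 were miR166 (0.98 without miR528, 0.73 by the median ratio, 0.60 by TMM), miR162 (0.95, 0.78), miR2910 (0.94, 0.78) and miR2915 (0.88, 0.72) by the median ratio and TMM, and miR168 (0.89), miR1318 (0.97) and miR171 (0.98) by TMM. Of the 64 sequences higher per matched reads, 9 fell under 1 by the median ratio and 25 by TMM. Among the sequences chosen by the naming rule, those that turned were miR168 ending C (0.997) and A (0.86), miR159 (0.90) and miR1318 (0.84) by TMM, and miR166 of 19 nt (0.99, 0.82), miR894 (0.9999, 0.82) and miR162 (0.93, 0.76) by the median ratio and TMM. With perfect matches, miR167 turned to 2.20 per clean and 10.98 per matched reads, and per clean reads miR171 to 3.20 (2.65 with at most 1 mismatch or gap) and miR2915 to 1.38, from 3 and 2 reads. Without the most abundant sequence of each family miR172 turned to 0.88 and miR171 to 1.15 per clean reads. The main difference of scale was not tested for a cause.

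No paired analysis was possible because each group has 1 library and no replicate was left out. Depth limits families under about 100 reads, whose intervals often span 1.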
